A study of Mus musculus with 16 samples.

Results

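10 genes that encode ionotropic glutamate receptor subunits, *Grin1*, *Grin2a*, *Grin2b*, *Grin2d* and *Grin3a* of the NMDA class and *Grik1* to *Grik5* of the kainate class, were followed across neurons exposed to the human apoE isoforms. They were chosen by symbol from the deposited count tables and are 10 of the 48397 gene symbols counted, and all 10 passed the filter on low counts. The RNA came from primary hippocampal neurons of wild type CD1 mice, prepared from newborn pups, treated with cytosine arabinoside early in culture and harvested at 17 days in vitro (DIV). At 10 and 13 DIV the cultures received concentrated conditioned medium from immortalized astrocytes. The medium of astrocytes that lack apoE (*Apoe*-/-) was given to the control group, and the medium of astrocytes homozygous for the human *APOE* ε2, ε3 or ε4 allele, which carries apoE lipoproteins, was given to the apoE2, apoE3 and apoE4 groups. Each isoform came from an astrocyte line of its own, so the isoform and the line cannot be told apart, and the neurons of all groups carried their own mouse *Apoe*. The study's methods describe evening out apoE levels with concentrated *Apoe*-/- medium, so an apoE medium could also hold medium of the control line. Each group had 4 libraries, numbered 1 to 4. Neither the labels nor the study's methods say whether libraries with the same number in different groups share a culture or a batch.

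NMDA receptors are tetramers that open when glutamate and glycine (or D-serine) are bound and depolarization has lifted the magnesium block, and they pass calcium that drives synaptic plasticity. GluN1 (*Grin1*) is the obligatory subunit, the GluN2 subunits (*Grin2a* to *Grin2d*) bind glutamate and set channel kinetics, and GluN3 subunits (*Grin3a*, *Grin3b*) lower calcium entry. In the developing hippocampus GluN2B-containing receptors are joined by GluN2A-containing ones as synapses mature. Kainate receptors adjust transmitter release and excitability on both sides of the synapse. GluK1 to GluK3 (*Grik1* to *Grik3*) form channels without other subunits, whereas GluK4 and GluK5 (*Grik4*, *Grik5*), which bind kainate with high affinity, need a GluK1 to GluK3 partner.

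Counts on genes ranged from 14087723 (apoE3 1) to 34248172 (apoE2 4) per library, and 38.4 to 73.7% of each library's records fell on no single gene. *Lars2* alone took 0.359% (apoE4 2) to 15% (apoE2 1) of the counts on genes. Its share was 5.95% in control 1, against 15, 12.5 and 12.2% in apoE2 1, apoE3 1 and apoE4 1. Control 4 had 8.36% and apoE2 4 had 0.69%, while control 2 had 4.85%. The part of this in the subunit differences was not tested. Levels are given as CPM, a gene's counts relative to the total of the library after TMM scaling (trimmed mean of M values), and levels of different genes are compared only as CPM per kilobase of merged exons. Neuronal markers were abundant in each library, with a summed level of 3180 to 7270 CPM for the 8 pan-neuronal markers. The 8 astrocyte markers summed to 1310 to 6580 CPM and the 9 oligodendrocyte lineage markers to 109 to 866 CPM, so other cells were present in the cultures. In bulk RNA, fewer cells of a type and less RNA per cell cannot be told apart.

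Merged exons pool all annotated transcripts of a gene, and they span 24842 bp for *Grin2b* and 9700 bp for *Grin1*. The order of genes on this scale therefore depends on those lengths, and which transcripts were expressed was not tested. In the control neurons the highest level per kilobase of merged exons was that of *Grin2b* (chr6:135713233-136173511 of mm10, minus strand), at 25.0 ± 4.63 CPM per kilobase (SD, n = 4). *Grin2a* (chr16:9567898-9995560, minus strand) had 17.1 ± 4.69 and *Grin1* (chr2:25291181-25319187, minus strand) had 15.8 ± 3.22 CPM per kilobase. Between them stood *Grik5* (chr7:25009849-25072346, minus strand), the main partner subunit of kainate receptors in the forebrain, at 16.9 ± 4.71 CPM per kilobase. The ranges of these 4 genes overlapped from each to the next, although *Grin2b* exceeded *Grin2a* within each of the 4 control libraries.

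The other subunits were lower. *Grik4* (chr9:42518135-42944493, minus strand) had 9.53 ± 1.62 and *Grik2* (chr10:49094833-49788766, minus strand) had 5.9 ± 1.09 CPM per kilobase. *Grik3* (chr4:125490700-125714173, plus strand), *Grin3a* (chr4:49661611-49845744, minus strand) and *Grik1* (chr16:87895900-88290265, minus strand) lay together at 2.15 ± 1.42, 2.03 ± 1.36 and 1.92 ± 0.747 CPM per kilobase, with overlapping ranges. *Grin2d* (chr7:45831883-45878378, minus strand), a GluN2 gene used mainly by interneurons in the hippocampus, was the lowest at 0.374 ± 0.186 CPM per kilobase. The ranges did not overlap between *Grin1* and *Grik4*, *Grik4* and *Grik2*, *Grik2* and *Grik3*, or *Grik1* and *Grin2d*. The 2 NMDA genes outside the chosen set were near the floor, with 0.451 to 1.44 CPM for *Grin2c* and 0 to 0.83 CPM for *Grin3b* over the 16 libraries. Exons of the antisense transcript *Grin1os* overlap 13.5% of the *Grin1* exons, and those of *Gm45441* overlap 9.66% of the *Grin2d* exons on the other strand. Whether the counting used strand is not given in the sources used here, so reads from these stretches cannot be assigned to one gene.

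**Figure D1:**
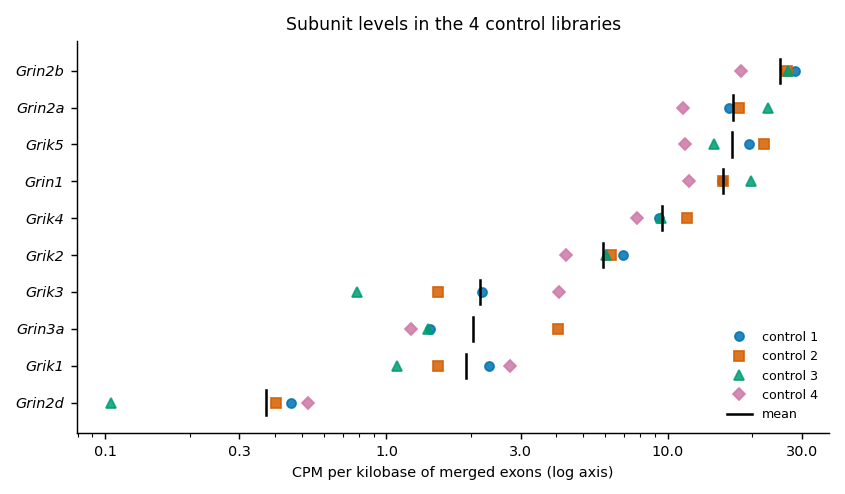
Level of each subunit in the 4 control libraries, in CPM per kilobase of merged exons on a log axis, with one symbol per library and a bar at the mean. *Grin2b* leads at 25.0 CPM per kilobase, *Grin2d* is lowest at 0.374, and the control 2 library stands apart for *Grin3a*.

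The replicate number carried more of the variation of each subunit than the apoE group did. Between 51.2% (*Grik3*) and 93.7% (*Grik1*) of the variance in log2 CPM over the 16 libraries lay between replicate numbers, against a median of 56.1% over the 17038 tested genes. Between groups lay 1.44% (*Grik1*) to 39.3% (*Grik3*), with 31.9% for *Grik2* and a median of 14.4% over all tested genes. *Grin1*, *Grin2a* and *Grin2b* were lowest on average under number 4, with a mean of 393 CPM of *Grin2b* against 695 to 811 CPM under the other numbers, whereas *Grin2d* was not (2.5 CPM, against 0.745 CPM under number 3). Some other neuronal transcripts were also low in the 4 libraries numbered 4, but not all. The AMPA subunit genes summed to 1070 to 1810 CPM there and to 1650 to 2400 CPM in the other 12 libraries, the 8 excitatory neuron markers to 518 to 888 against 911 to 1610 CPM, and the pan-neuronal markers to 3180 to 4670 against 4140 to 7270 CPM. *Grik1* and *Grik3* instead had their highest means under number 4, at 17.5 and 33.9 CPM. The interneuron markers summed to 605 to 924 CPM in the libraries numbered 4, against 413 to 986 CPM in the other 12 libraries. Those numbered 2 had the highest *Grin3a*, with 34.7 to 49.9 CPM against 7.94 to 20.3 CPM in all other libraries. In those numbered 3, *Grin2d* and *Grik1* were lowest, with 0.648 to 0.83 and 5.15 to 7.33 CPM. The summed interneuron markers were also lowest under number 3, with 413 to 520 CPM in its 4 libraries.

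**Figure D2:**
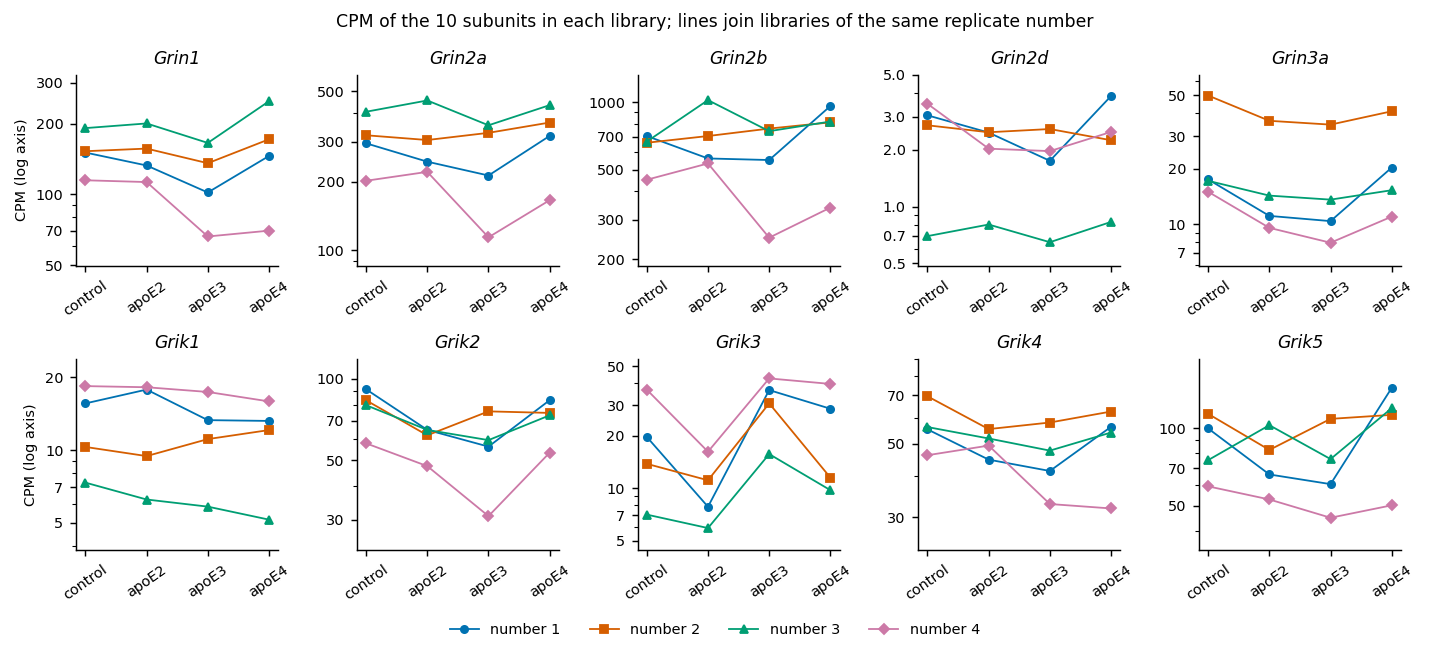
CPM of each subunit on a log axis in the 4 groups, with lines joining the libraries that share a replicate number. The number orders the libraries for most genes, and *Grik3* is lowest with apoE2 and highest with apoE3 under each of the 4 numbers.

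The comparisons with the control asked whether apoE lipoproteins of each isoform altered expression of the subunits in maturing neurons. With apoE2, 7 of the 10 subunits were lower than in the control group and 3 were higher on the fitted scale, although 2 of those 3, *Grin2a* and *Grik1*, stood at 0.00. The split was 9 lower and 1 higher (*Grin2b*) both with the replicate number as a block and with DESeq2. The reported fit had a median log2 fold change of -0.18 against 0.011 over all tested genes. None passed an adjusted p of 0.05 in edgeR's quasi-likelihood test, where 0.0% of all genes did, and none had an unadjusted p below that level (2.79% of all genes). The study's own criterion, an unadjusted p under 0.05 together with a 2-fold change or more, was met by 0 subunits and by 0.722% of all genes. For none of the 10 were the apoE2 and control libraries separated, against 2.19% of all genes. 3 members, *Grin3a*, *Grik2* and *Grik3*, were lower in 4 of 4 same-numbered pairs, as were 9.73% of all genes.

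No difference in *Grin1*, *Grin2a* or *Grin2b* was detectable with apoE2 at this spread between libraries. *Grin1* had 151, 153, 192 and 115 CPM in control libraries 1 to 4 and 133, 157, 201 and 113 CPM with apoE2. The pairs went both ways, and the log2 fold change was -0.02 (SE 0.34). For *Grin2a* it was 0.00 (SE 0.36), and for *Grin2b* it was 0.18 (SE 0.35) with pairs from -0.33 to 0.61. *Grin2d* had a log2 fold change of -0.35 (SE 0.55) at 1.95 ± 0.79 CPM with apoE2. *Grin3a* had 17.5, 49.9, 17.2 and 15 CPM in the control group and 11.1, 36.4, 14.3 and 9.56 CPM with apoE2, a log2 fold change of -0.48 (SE 0.58). It was lower in each pair by 0.27 to 0.65 on the log2 scale while the groups overlapped, and with the replicate number as a block its adjusted p was 0.0558.

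Among the kainate subunits, *Grik3* had the largest difference, with 19.7, 13.8, 7.05 and 36.8 CPM in the control group and 7.82, 11.1, 5.90 and 16.2 CPM with apoE2. All 4 apoE2 libraries were below their same-numbered controls, by more in numbers 1 and 4 than in numbers 2 and 3, and the groups overlapped. The log2 fold change was -0.90 (SE 0.53), with an adjusted p of 1.0 without and 0.103 with the replicate block. It was -0.38 without control 4 and -1.21 without apoE2 4. *Grik2* went from 91.5, 83.3, 79.9 and 57.7 CPM to 64.7, 61.8, 64.7 and 47.5 CPM. Each pair was lower with apoE2, and the highest apoE2 value stood above the lowest control value. Its log2 fold change was -0.39 (SE 0.23), and its adjusted p was 0.111 with the block. No subunit passed in the blocked fit with apoE2, where 1.73% of all genes did, but *Grin3a* and *Grik2* did when offsets for exon length and GC content were added to it (1.87% of all genes). *Grik1*, *Grik4* and *Grik5* had log2 fold changes of 0.00, -0.17 and -0.20 (SE 0.43, 0.20 and 0.33).

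With apoE3, 9 of the 10 subunits were lower than in the control group and only *Grik3* was higher, with a median log2 fold change of -0.31 against 0.015 over all tested genes. Without apoE3 4, *Grin1*, *Grin2a*, *Grin2b*, *Grik2*, *Grik4* and *Grik5* had -0.18, -0.03, 0.15, -0.29, -0.21 and -0.09. Each was the highest value for that gene with 1 library left out, whereas *Grik1* then had its lowest, -0.36. None of the 10 passed the adjusted threshold, as 0.00587% of all genes did, and 0 met the study's criterion, against 1.96% of all genes. The one unadjusted p below 0.05 belonged to *Grik2*, against 6.43% of all genes. With the replicate number as a block, 3 of the 10 passed, against 11.7% of all genes: *Grin3a* and *Grik2* fell and *Grik3* rose. Higher calls made up 7.95% and lower calls 3.73% of all genes in that fit. With the length and GC offsets as well, 5 were called (13.9% of all genes), *Grin1* and *Grik4* being lower beside those 3. No subunit had separated groups (2.59% of all genes did). 5 were lower in 4 of 4 pairs, against 16% of all genes.

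*Grik2*, a pore-forming subunit of most hippocampal kainate receptors, had 56.1, 75.8, 59.3 and 31.0 CPM with apoE3, against 91.5, 83.3, 79.9 and 57.7 CPM in the control group. Each apoE3 library was below its same-numbered control, by 0.14 in number 2 and by 0.90 in number 4 on the log2 scale, and the groups overlapped. The log2 fold change was -0.49 (SE 0.23, adjusted p = 0.77), and with the block it was -0.52 (adjusted p = 0.00897). *Grin3a*, whose GluN3A subunit is most abundant while synapses are immature, had 10.4, 34.7, 13.6 and 7.94 CPM with apoE3. Each value was below its same-numbered control, and the spread between numbers was wider than the difference between groups. The log2 fold change was -0.57 (SE 0.58, adjusted p = 0.824), and with the block it was -0.61 (adjusted p = 0.00687). Without the block, leaving out 1 library moved the *Grin3a* value between -1.22 (without apoE3 2) and 0.01 (without control 2). Both calls held in the blocked fit when any 1 of the 16 libraries was left out. The call for *Grik2* was lost without the libraries of number 1 or of number 3, where the largest adjusted p was 0.115.

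*Grik3*, which encodes the pore-forming subunit with the lowest glutamate affinity of the class, had 36.6, 30.7, 15.7 and 42.7 CPM with apoE3. All 4 values were above the same-numbered controls, by 0.22 in number 4 and by 0.90 to 1.16 on the log2 scale in the others, and the groups overlapped. Its log2 fold change was 0.70 (SE 0.53, adjusted p = 0.81), and with the block it was 0.84 (adjusted p = 0.0187). That call was lost without control 1, control 3 or apoE3 1, with a largest adjusted p of 0.0697, and without all libraries of number 1 or of number 3.

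*Grin1* had 102, 136, 166 and 66.2 CPM with apoE3 and was lower in each pair, most in number 4. Its log2 fold change was -0.38 (SE 0.34), and with the block it was -0.44 (adjusted p = 0.0507). For *Grin2a*, *Grin2b* and *Grin2d* the log2 fold changes were -0.28, -0.11 and -0.51 (SE 0.36, 0.35 and 0.55). *Grin2b* went both ways, with 552, 762, 742 and 249 CPM against 706, 659, 667 and 451 CPM in the control group. *Grik4* was lower in 4 of 4 pairs with a log2 fold change of -0.34 (SE 0.20, adjusted p with the block = 0.0666). *Grik1* and *Grik5* had -0.12 and -0.26 (SE 0.43 and 0.33).

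With apoE4 the subunits were split, 5 above and 5 below the control group, and the median log2 fold change was -0.01 against 0.002 over all tested genes. None passed the adjusted threshold, without the block (0.194% of all genes did) or with it (3.3%), and 0 met the study's criterion (1.15%). The groups overlapped for each of the 10, while they were separated for 1.91% of all genes. *Grin1* had 146, 172, 250 and 70.1 CPM, which put the apoE4 libraries on both sides of the controls, and its log2 fold change was 0.06 (SE 0.34). For *Grin2a* and *Grin2b* the values were 0.07 and 0.24 (SE 0.36 and 0.35), and those for *Grin2d* and *Grin3a* were -0.08 and -0.18 (SE 0.55 and 0.58). With the block, the sign for *Grin1* was the opposite, at -0.04. *Grik2* had 83.4, 74.8, 73.3 and 53.3 CPM, lower than the control in each pair by 0.12 to 0.16 on the log2 scale, a log2 fold change of -0.13 (SE 0.23). *Grik3* had 28.6, 11.5, 9.74 and 39.7 CPM, with 3 of 4 pairs higher and a log2 fold change of 0.21 (SE 0.53). *Grik5* had 0.29 (SE 0.33), *Grik1* -0.15 (SE 0.43) and *Grik4* -0.15 (SE 0.20).

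**Figure D3:**
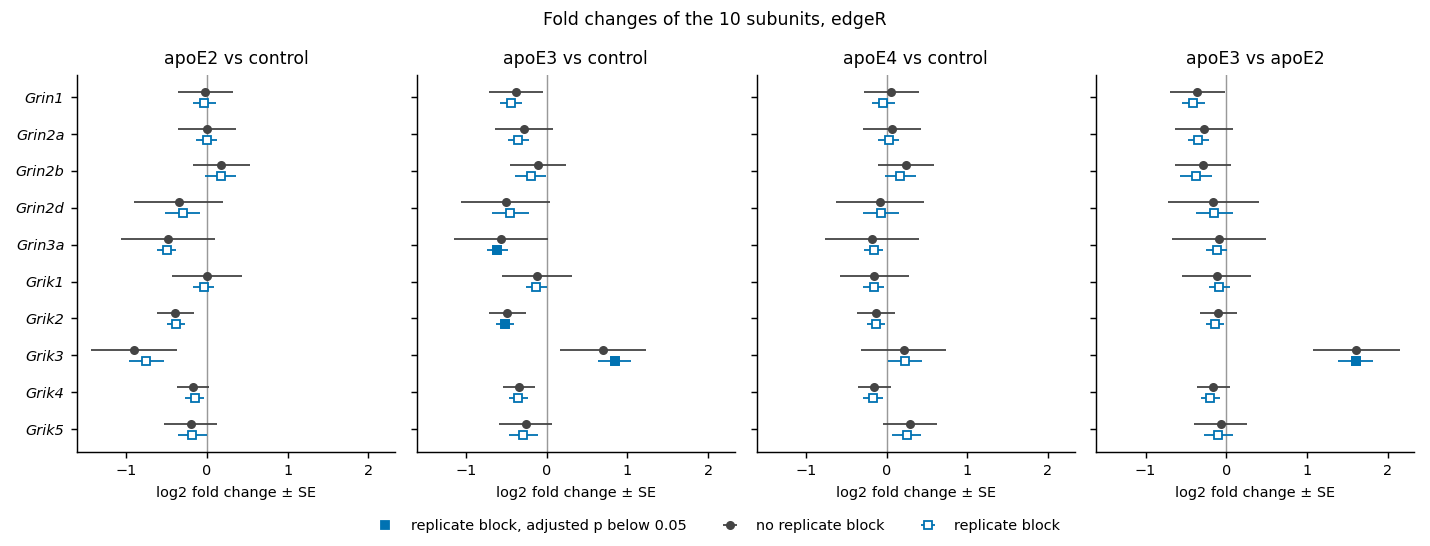
Log2 fold change with its standard error for each subunit in 4 comparisons, from edgeR without the replicate block (circles) and with it (squares, filled where the adjusted p was below 0.05). The errors are smaller with the block, the estimates shift by less than their unblocked errors (*Grik3* with apoE2 from -0.90 to -0.75, *Grin1* with apoE4 from 0.06 to -0.04), and the 4 filled squares belong to *Grin3a*, *Grik2* and *Grik3* with apoE3 and to *Grik3* between apoE3 and apoE2.

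Comparisons between isoforms asked whether the lipoproteins acted differently. They share their libraries with the comparisons above. Between apoE3 and apoE2, *Grik3* was 3.04-fold higher with apoE3 on the fitted scale, a log2 fold change of 1.61 (SE 0.54), and it was higher in 4 of 4 pairs by 1.4 to 2.23 on the log2 scale. The highest apoE2 library (16.2 CPM) and the lowest apoE3 library (15.7 CPM) overlapped by a narrow margin. The adjusted p was 1.0 without the block, where 0 genes passed at all and 0.0% is the background, and 0.00427 with it, where *Grik3* was the 1 subunit called and 1.31% of all genes passed (1.6% with the length and GC offsets, where *Grik3* was again the 1 called). *Grik3* was also the 1 subunit that met the study's criterion, with an unadjusted p of 0.00985 in edgeR, as did 0.687% of all genes. In the blocked fit the call held with any 1 library left out and was lost without the libraries of number 3 (adjusted p = 0.0536). The other 9 subunits were lower with apoE3 than with apoE2, by 0.07 (*Grik5*) to 0.36 (*Grin1*) on the log2 scale, none past the threshold.

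Between apoE4 and apoE2, *Grik3* had a log2 fold change of 1.12 (SE 0.54, adjusted p = 0.96) and was higher in 4 of 4 pairs, by as little as 0.05 in number 2. No subunit passed without the block, where 0.252% of all genes did. With the block *Grik3* was called (log2 fold change 0.98, adjusted p = 0.0188), against 4.44% of all genes, and it was the 1 subunit called with the offsets as well (4.79%). That call was lost when apoE2 1, apoE2 4, apoE4 1, apoE4 3 or apoE4 4 was left out, with a largest adjusted p of 0.0844, and it was also lost without all libraries of number 1, 3 or 4, with a largest adjusted p of 0.155. Between apoE4 and apoE3, 8 of the 10 subunits were higher with apoE4 and the median log2 fold change was 0.35, against -0.016 over all tested genes. None of them passed without the block (0.147% of all genes) or with it (1.76%). The exceptions to that direction were *Grik1* (-0.03) and *Grik3* (-0.49). *Grik5* had the largest difference, 0.55 (SE 0.33), and was higher in 4 of 4 pairs. So were *Grin1*, *Grin2a*, *Grin2b* and *Grin3a*, while *Grik3* was lower in 4 of 4. An unadjusted p below 0.05 in the blocked fit was found for 6 of the 10, and for 2769 of all 17038 genes. Without apoE3 4 and without the block, *Grin2a*, *Grin2b*, *Grik2*, *Grik4* and *Grik5* fell to 0.09, 0.09, 0.15, 0.05 and 0.37, each its lowest with 1 library left out.

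The count ratio of *Grin2a* to *Grin2b*, a common measure of NMDA receptor maturation, does not depend on library scaling. On the log2 scale it averaged -1.04 ± 0.24 in the control group, -1.21 ± 0.05 with apoE2, -1.20 ± 0.13 with apoE3 and -1.18 ± 0.30 with apoE4 (SD, n = 4). The 3 differences from the control were -0.17, -0.15 and -0.13, with 3 of 4 pairs lower in each, and two-sided exact permutation tests gave p = 0.2, 0.371 and 0.6. After adjustment over the 6 comparisons every p was 0.914. The counts of *Grik1* to *Grik5* together over those of the 5 NMDA genes averaged -2.11 ± 0.28 in the control group and -2.45 ± 0.29 with apoE2 on the log2 scale. With apoE3 and apoE4 the averages were -2.06 ± 0.52 and -2.16 ± 0.39. The ratio was lower with apoE2 than in the control group in 4 of 4 pairs, by 0.35 on average (exact permutation p = 0.171, adjusted p = 0.686). It was higher in 4 of 4 pairs with apoE3 than with apoE2, by 0.39, and with apoE4 than with apoE2, by 0.29 (exact permutation p = 0.286 and 0.343, adjusted p = 0.686 for both). The smallest p that 4 pairs allow under the exact sign-flip test is 0.125, which these 3 differences had.

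**Figure D4:**
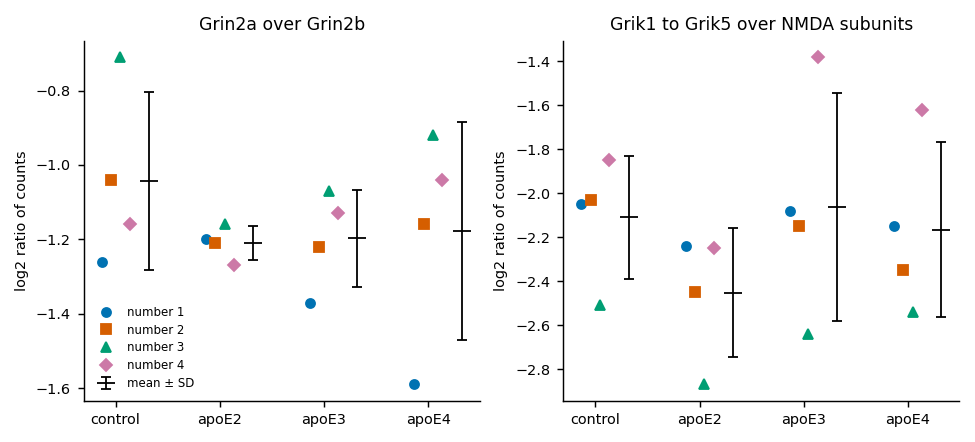
Log2 ratio of counts in each library for *Grin2a* over *Grin2b* (left) and for *Grik1* to *Grik5* over the 5 NMDA genes (right), with the mean and SD of each group beside its points. The *Grin2a* ratio is widest apart in apoE4 (SD 0.30), and the kainate ratio is lowest on average with apoE2, at -2.45.

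Glial markers differed between the groups as well. In the blocked fit 7 of 8 astrocyte markers and 4 of 9 oligodendrocyte lineage markers were higher with apoE3 than in the control group, against 11.7% of all genes (7.95% higher and 3.73% lower). Without the block the median log2 fold changes were 0.83 and 0.83 and 0 passed on each list. With apoE4, 3 astrocyte markers and 1 oligodendrocyte lineage marker were higher in the blocked fit (3.3% of all genes were called), and with apoE2 0 were called (1.73%). Of 8 mural and fibroblast markers, 2 were higher with apoE3 and 1 with apoE4. The astrocyte markers summed to 1700 to 6580 CPM with apoE3 and to 1410 to 3160 CPM in the control group, and none was at 0. Of the 12 interneuron markers, 5 were lower and 1 (*Pvalb*) was higher with apoE3 in the blocked fit. The pan-neuronal markers summed to 3180 to 6710 CPM with apoE3 and 4220 to 7110 CPM in the control group. In the blocked fit 2 of the 8 (*Snap25* and *Nefl*) were lower and 1 (*Tubb3*) was higher with apoE3. The excitatory neuron markers summed to 519 to 1510 CPM with apoE3 and 828 to 1560 CPM in the control group. Their median log2 fold change without the block was -0.28, beside -0.31 for the subunits, and 1 of the 8, *Slc17a6*, was called, as higher. The 5 markers of dividing cells summed to 6.68 to 17.3 CPM in the control group, 18.5 to 27.9 CPM with apoE2, 25.8 to 40.0 CPM with apoE3 and 11.5 to 28.8 CPM with apoE4, so that the apoE2 and apoE3 ranges lay above the control range. Their median log2 fold changes without the block were 0.48, 0.70 and 0.80, and *Top2a* was called higher with apoE2 and apoE3 in the blocked fit (1.84 and 2.58). The part of these shifts in the subunit differences was not tested.

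Taken relative to the summed pan-neuronal markers of the same library, a scale added after the data were seen, *Grik2* and *Grin3a* were lower with apoE3 in 4 of 4 pairs, by 0.40 and 0.49 on average on the log2 scale (exact permutation p = 0.143 and 0.429). On that scale *Grik3* was higher by 1.00 with apoE3 than in the control group and by 1.81 than with apoE2, in 4 of 4 pairs each (exact permutation p = 0.229 and 0.0571). *Grin1* was lower with apoE3 in 4 of 4 pairs, by 0.12 to 0.40, with an exact permutation p of 0.0286. That is the smallest p that 4 against 4 allow, and each of these p-values was 0.92 after adjustment over the 60 subunit comparisons. The 5 libraries highest in *Grik3* were apoE3 4, apoE4 4, control 4, apoE3 1 and apoE3 2, at 42.7, 39.7, 36.8, 36.6 and 30.7 CPM. Their astrocyte markers summed to 6580, 5360, 3160, 4410 and 1700 CPM and their oligodendrocyte lineage markers to 814, 701, 451, 866 and 143 CPM. The 5 lowest in *Grik3* were apoE2 3, control 3, apoE2 1, apoE4 3 and apoE2 2, at 5.90, 7.05, 7.82, 9.74 and 11.1 CPM. They had 2900, 2480, 3150, 3610 and 1310 CPM of astrocyte and 235, 187, 841, 233 and 123 CPM of oligodendrocyte lineage markers. Next came apoE4 2 and control 2, at 11.5 and 13.8 CPM of *Grik3*. These had 1570 and 1410 CPM of astrocyte and 113 and 109 CPM of oligodendrocyte lineage markers. Whether *Grik3* follows glial content was not tested.

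**Figure D5:**
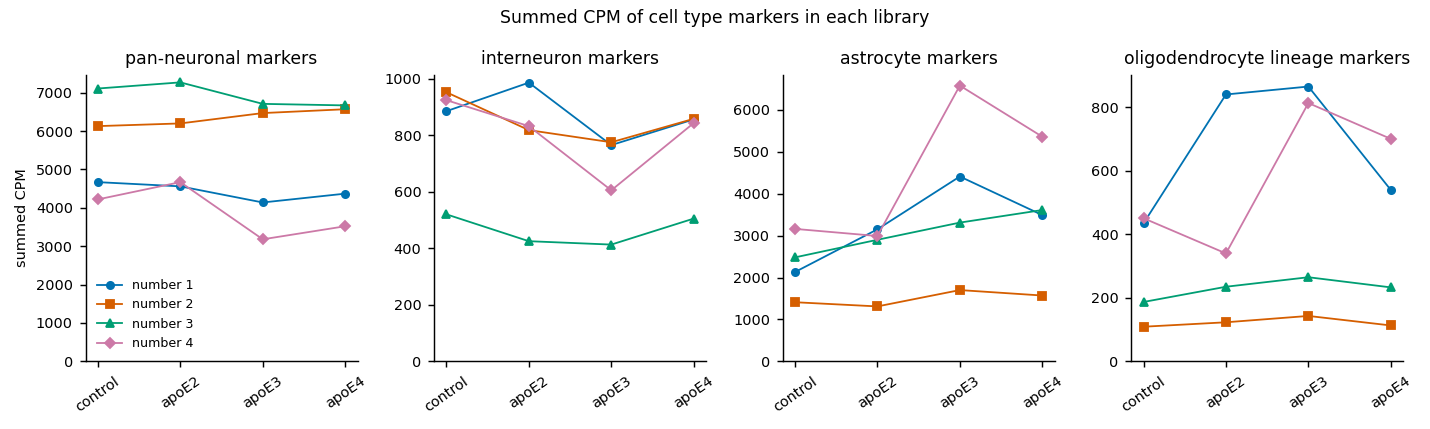
Summed CPM of 4 sets of cell type markers in each library, with lines joining libraries that share a replicate number. Astrocyte markers reach 6580 CPM in apoE3 4, where the pan-neuronal sum is lowest at 3180 CPM.

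Partners of the receptors were read from lists of known proteins. No gene of these lists passed the adjusted threshold without the block in any comparison with the control, and the counts and fold changes of single genes that follow are from the blocked fit. It called 11.7% of all genes for apoE3 (7.95% as higher and 3.73% as lower), 1.73% for apoE2 and 3.3% for apoE4. The 4 AMPA subunit genes, the other fast glutamate receptors, had median log2 fold changes without the block of 0.08, -0.13 and -0.08 with apoE2, apoE3 and apoE4, and 0 were called. *Neto1* and *Neto2*, the auxiliary subunits of kainate receptors, were not called in any comparison with the control, and had -0.38 and 0.08 with apoE3. Among 11 scaffold and trafficking genes, *Dlg2*, which encodes PSD-93 that anchors NMDA receptors, was lower with apoE3 (log2 fold change -0.48, adjusted p = 0.0283). *Dlg4*, which encodes PSD-95, had an adjusted p of 0.0531 at -0.31 in the same fit. Of 12 genes that act downstream of NMDA receptors, 3 were lower with apoE3, namely the kinase subunit gene *Camk2b* (-0.36), the calcineurin gene *Ppp3ca* (-0.34) and the Ras exchange factor gene *Rasgrf1* (-1.0). *Rasgrf1* was also lower with apoE2, at -0.97. *Adarb2*, of 3 RNA editing enzyme genes, was lower with apoE3 at -1.03 (adjusted p = 0.00426). *Slc1a4*, a neutral amino acid transporter gene among 7 tested genes of glycine and D-serine handling, was higher with apoE3 at 0.43 (adjusted p = 0.0125).

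Among 11 regulators of transcription, *Hipk2*, a nuclear kinase gene, differed most. It had 17.2 ± 8.41 CPM in the control group, 22.5 ± 6.68 with apoE2, 33.1 ± 12.3 with apoE3 and 72.7 ± 35.6 with apoE4. Without the block the log2 fold change for apoE4 was 2.08 (SE 0.43), with an adjusted p of 0.09 in edgeR, and the adjusted p with the block was 9.43e-06. With apoE3 it was higher by 0.98 in the blocked fit (adjusted p = 0.00305). The repressor gene *Rest* was higher with apoE3 and apoE4 in the blocked fit (0.86 and 1.22), which called 11.7% and 3.3% of all genes. *Sp1* was higher with apoE4 (0.87), and *Mef2c* was lower with apoE3 (-0.38).

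Over the 16 libraries some pairs of subunits moved together and others ran against each other. *Grin1* and *Grin2a* had a Pearson r of 0.96 (Spearman rho 0.94) in log2 CPM, and *Grin2a* and *Grin2b* had r = 0.94 and rho = 0.86. *Grik3* ran against *Grin1*, with r = -0.78 and rho = -0.82, and *Grik1* against *Grin2a*, with r = -0.77 and rho = -0.85. *Grik1* and *Grin2d*, both lowest in the libraries numbered 3, had r = 0.80 but rho = 0.51. These points share 4 replicate numbers and 4 groups, and most of the variance of each gene lay between the numbers, so the correlations are descriptions of these libraries. Of all tested genes, the 5 with the pattern most like *Grin1* were *Pacsin1* (r = 0.978), *Dlgap3*, *Dlk2*, *Egr4* and *Pde4dip* (r = 0.968). Among those most like *Grin2b* were *Camk2a* (r = 0.976), *Kcnj6*, *Nol6* and *Gnao1* (r = 0.961). For *Grik2* they were *Atp6v1c2* (r = 0.964), *Camk2n1*, *Gm11767*, *Ryr2* and *Slc30a3* (r = 0.943).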

How the data were processed

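The authors aligned ribosomal RNA-depleted reads to mm10 with STAR and counted them per gene with HTSeq. The deposited values are raw counts for each of the 16 libraries, one table per library. The annotation and strand setting of the counting are not given in the sources used here. The labels of the samples gave their groups and replicate numbers, and the study's methods describe 4 independent cultures per group. HTSeq's lines for records on no single gene entered neither the library sizes nor the tests. No pair of libraries held identical counts.

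Counts were fitted with edgeR 4.0.16 in R 4.3.3: TMM scaling, filterByExpr (minimum count 10, minimum total 15, minimum proportion 0.7), 1 coefficient per group over all 16 libraries and quasi-likelihood tests. P-values were adjusted by Benjamini-Hochberg over the 17038 genes tested in each comparison. Standard errors are the log2 fold change over the root of the F statistic. Log2 CPM used a prior count of 2. The 2 count ratios were compared by two-sided exact permutation tests. Gene positions and exon lengths come from GENCODE M21 on the same build. The scripts were tested on simulated data. The depth, 14087723 to 34248172 counts on genes, gave 133 to 221 counts per group for *Grin2d*, the least abundant subunit, and at least 862 for each of the others.

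The replicate numbers were checked for pairing. Deviations from group means over all tested genes correlated between same-numbered libraries at between 0.362 and 0.552 in number 1 and between 0.62 and 0.831 in numbers 2, 3 and 4, against -0.736 to 0.569 between libraries of different numbers and groups, a range that holds the values of number 1. Each same-numbered pair was above 0.1, and the blocked fit is therefore given beside a result it changes. The common dispersion was 0.132 without and 0.0178 with the block.

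The alternatives were DESeq2 1.42.0 and its size factors, no filter and a stricter filter (1 CPM in 8 libraries), the 2 groups alone, the replicate block, offsets for exon length and GC content (splines with 4 degrees of freedom), and each library left out. The members, the lists of other genes and the rule for naming genes were chosen with earlier results of these data known. All 10 members are named. Genes of the receptor-related and transcription lists are named where a fit called them in a comparison with the control, or as *Hipk2*, *Dlg4*, *Grin2c*, *Grin3b*, *Neto1* and *Neto2*, and so are the 5 genes most correlated with *Grin1*, *Grin2b* and *Grik2*, except 1 that is not reported here. Cell type markers are mostly given by counts of calls, and calls of other genes between isoforms are not given. The protein and microscopy measurements of the study were not analysed here.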

Additional observations from a re-analysis of the deposited data

Results flagged for a closer look

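In groups of 4, a library stands apart where its gap to the nearest of the others, as a share of the group's range, passes Dixon's critical value. This was checked for the 10 subunits and the 2 count ratios in each group, 48 groups in all, and 2 groups had such a library, where chance gives about 1 in 20. *Grin3a* was 49.9 CPM in control 2 against 15 to 17.5 CPM in the other controls (a gap of 0.929 of the range). Libraries numbered 2 were also the highest for *Grin3a* in the other groups, at 34.7 to 41.0 CPM. *Grik2* was 47.5 CPM in apoE2 4 against 61.8 to 64.7 CPM in the other apoE2 libraries (0.831 of the range). Libraries numbered 4 were also the lowest for *Grik2* in the other groups, at 57.7, 31.0 and 53.3 CPM in control, apoE3 and apoE4. The apoE2 4 library had the lowest share of records on no single gene (38.4%, with 38.6% in apoE4 2 and 51.4 to 73.7% in the others). *Grik3* was higher than its same-numbered controls in 4 of 4 pairs with apoE3 and lower in 4 of 4 with apoE2. The apoE2 difference was not called in edgeR (adjusted p = 1.0, and 0.103 with the replicate block), the groups overlapped, and both comparisons share the control libraries. The direct comparison of apoE3 with apoE2 gave a log2 fold change of 1.61, with an adjusted p of 1.0 in edgeR without the replicate block and 0.00427 with it.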

How the results depend on the processing

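The log2 fold changes of the 10 subunits in the 6 comparisons were recomputed under 24 alternatives, which gave 1440 values. Of these, 1334 kept their direction and their side of the threshold, 14 passed the threshold only in a blocked fit, and 92, belonging to 29 of the 60 differences, had the other sign. No difference that changed sign exceeded 0.57 on the log2 scale in size as reported. For 0 subunits was a difference called under another size factor, another filter, DESeq2, the 2 groups alone, the length and GC offsets without the block, or 1 library left out without the block.

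With the replicate block, 3 subunits were called for apoE3 against the control, 1 for apoE4 against apoE2 and 1 for apoE3 against apoE2. With the replicate block and the length and GC offsets together, 2 were called for apoE2 against the control (*Grin3a* and *Grik2*; 1.87% of all genes), 5 for apoE3 against the control (*Grin1* and *Grik4* beside the other 3; 13.9% of all genes), 1 for apoE4 against apoE2 and 1 for apoE3 against apoE2. Over all fits with a library or a number left out, with or without the block, between 0 and 2 subunits were called for apoE2 against the control, 0 and 6 for apoE3 against the control, 0 and 1 for apoE4 against apoE3, 0 and 1 for apoE4 against apoE2, and 0 and 1 for apoE3 against apoE2. The blocked fits with 1 library or 1 number left out were added after the data were seen. The share of all genes called in them is not given here, so their counts of subunits have no background. With all libraries the blocked fit called 1.73% of all genes for apoE2 and 11.7% for apoE3 against the control. Between isoforms it called 1.76% for apoE4 against apoE3, 4.44% for apoE4 against apoE2 and 1.31% for apoE3 against apoE2. The study's criterion took in 1 subunit, *Grik3*, for apoE4 against apoE2 with no low-count filter, 1 with DESeq2, and 0 to 1 with a library left out. Of all genes it took in 715 of 34387, 428 of 34374, and 208 of 17115 (without apoE2 2) to 379 of 17097 (without apoE4 2). It took in 0 to 1 subunits for apoE2 against the control (1 without control 3, with 139 of 17133 genes). For apoE3 against the control it took in 0 to 1 (1 without control 4, with 782 of 17668 genes). The replicate block changed no other call of a subunit.

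Sign changes outside the fits with a library left out were these. For apoE2 against the control, *Grin2a* and *Grik1*, at 0.00 as reported, were -0.01 and -0.02 with DESeq2 size factors, -0.01 and -0.01 with the stricter filter and with DESeq2, -0.03 and -0.04 with the length and GC offsets, and -0.02 and -0.08 with the offsets and the block. *Grik1* was also -0.01 with no filter and with the 2 groups alone, and -0.04 with the replicate block, where *Grin2a* was at -0.00 in each case, which is not counted as a change of sign. For apoE4 against the control, *Grin1* was -0.04 with the replicate block, -0.09 with the length and GC offsets and -0.18 with both, and *Grin2a* was -0.06 with the offsets and -0.10 with both. For apoE4 against apoE2 with the replicate block, *Grin1* was -0.01, *Grin2b* -0.01 and *Grik4* -0.02. With the offsets, *Grin1* was -0.03, *Grin2a* -0.03, *Grin2b* -0.08 and *Grik4* -0.03, and with both they were -0.14, -0.07, -0.13 and -0.09. The cause was not tested. The *Grin2a* to *Grin2b* log2 ratio with 1 library left out ran from -0.22 to 0.01 for apoE4 against the control, -0.07 to 0.16 for apoE4 against apoE3, -0.05 to 0.17 for apoE4 against apoE2 and -0.03 to 0.07 for apoE3 against apoE2. The kainate to NMDA log2 ratio ran from -0.18 to 0.24 for apoE3 and -0.24 to 0.07 for apoE4 against the control, and -0.29 to 0.13 for apoE4 against apoE3.

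With 1 library left out, these log2 fold changes crossed 0. For apoE2 against the control, *Grin1* ran from -0.20 to 0.11, *Grin2a* from -0.27 to 0.17, *Grin2b* from -0.06 to 0.29, *Grin3a* from -1.11 to 0.11 and *Grik1* from -0.22 to 0.23. For apoE3 against the control, *Grin2b* ran from -0.27 to 0.15, *Grin3a* from -1.22 to 0.01 and *Grik1* from -0.36 to 0.11. For apoE4 against the control, *Grin1* ran from -0.24 to 0.31, *Grin2a* from -0.11 to 0.28, *Grin2d* from -0.41 to 0.21, *Grin3a* from -0.68 to 0.41, *Grik1* from -0.35 to 0.09, *Grik3* from -0.22 to 0.73 and *Grik4* from -0.26 to 0.02. For apoE4 against apoE3, *Grin3a* ran from -0.11 to 1.04 and *Grik1* from -0.26 to 0.21. For apoE4 against apoE2, *Grin1* ran from -0.22 to 0.33, *Grin2a* from -0.12 to 0.33, *Grin2b* from -0.10 to 0.29, *Grin2d* from -0.06 to 0.56, *Grin3a* from -0.20 to 0.92, *Grik1* from -0.38 to 0.09 and *Grik4* from -0.09 to 0.20. For apoE3 against apoE2, *Grin2d* ran from -0.43 to 0.12, *Grin3a* from -0.74 to 0.53, *Grik1* from -0.36 to 0.10, *Grik2* from -0.29 to 0.10 and *Grik5* from -0.33 to 0.12. *Grik3* with apoE2 ran from -1.21 to -0.38 against the control. No left-out library turned *Grik3* against the control or apoE2 in the apoE3 group (0.42 to 1.22 and 1.41 to 1.90), or *Grik2* against the control in it (-0.68 to -0.29).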

Other observations

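Shares of a class per kilobase of merged exons depend on the merged exon lengths, as the levels per kilobase do. As a share of the NMDA class on that scale, *Grin2b* made up 41.7 ± 3.16% in the control group and 45.1 ± 1.38% with apoE2, 45.1 ± 3.04% with apoE3 and 44.8 ± 5.61% with apoE4 (SD, n = 4). Within the kainate class *Grik5* made up 45.7 ± 5.74% in the control group, 47.2 ± 7.67% with apoE2, 44.2 ± 6.9% with apoE3 and 51.6 ± 9.63% with apoE4. The share of *Grik3* in that class was 6.24 ± 4.97% in the control group, 3.88 ± 2.1% with apoE2, 12 ± 6.31% with apoE3 and 7.38 ± 6.72% with apoE4. *Grik2* made up 16.3 ± 2.2% in the control group, 14.7 ± 1.58% with apoE2, 13.3 ± 2.4% with apoE3 and 14 ± 1.1% with apoE4. Of all tested genes the one closest to *Grik3* over the 16 libraries was *Gdf11* (r = 0.951, rho = 0.918), a gene named after its values were seen.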
